A study of Homo sapiens with 4 samples.

Results

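The HSP40 or DNAJ genes were taken as every row of the count table whose symbol is DNAJA, DNAJB or DNAJC followed by a number and at most 1 letter, which left 45 genes of 61806. Class A held 4 of them, class B 13 and class C 28. Pseudogenes, antisense genes and readthrough genes with a DNAJ symbol, 37 further rows, were kept out. Poly(A) RNA of 2 human cancer cell lines, MDA-MB-231 and also MDA-MB-435, both given as wild type, was sequenced from control cells and from cells treated with 10 µM CPYPP for 6 h. CPYPP is a small molecule that inhibits DOCK guanine nucleotide exchange factors and that the study used to induce paraptosis, a form of cell death with cytoplasmic vacuoles. What the control cells received is not given in the labels. Each of the 4 conditions was 1 library, so no value has a replicate and the spread between cultures is unknown.

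DNAJ proteins carry a J domain, through which they stimulate the ATPase of HSP70 chaperones and hand them unfolded or specific client proteins. Class A proteins also have a zinc-finger region and a glycine- and phenylalanine-rich region, class B proteins have the latter without the zinc finger, and class C proteins share only the J domain and differ widely in location and task. Some cytosolic members are well known targets of heat shock factor 1 in the response to misfolded protein, and several members of the endoplasmic reticulum belong to the unfolded protein response.

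The libraries held between 17196385 and 22663954 counts. Of the counts in the control library of MDA-MB-231, 0.289% came from DNAJ genes (95% Clopper-Pearson interval 0.287% to 0.292%), against 0.598% (0.594% to 0.602%) in its CPYPP library. The same shares were 0.299% (0.297% to 0.302%) and 0.789% (0.785% to 0.793%) for MDA-MB-435. These intervals, and all others here, cover counting error only, and PCR copies of a molecule are counted as separate reads. The labels call both lines breast cancer cells, although MDA-MB-435 has elsewhere been typed as a melanoma line. The melanocyte markers SOX10 and DCT had 0 and 1 counts in the MDA-MB-231 control and 3031 and 658 in the MDA-MB-435 control, and the epithelial keratin KRT19 had 3953 and 4. MITF, the melanocyte transcription factor, did not set them apart, with 1585 counts in the MDA-MB-231 control and 1405 in the MDA-MB-435 control. The other melanocyte markers MLANA, PMEL, TYR and TYRP1 were low in both controls, at 8, 34, 0 and 3 counts for MDA-MB-231 and 9, 13, 2 and 10 for MDA-MB-435. Of the other breast cancer and mesenchymal markers, KRT8 had 12813 counts in the MDA-MB-231 control against 522 in the MDA-MB-435 control, KRT18 8212 against 5740, VIM 38484 against 98483 and CD44 27537 against 36689. The 5 genes of that list summed to 2913 TPM in the MDA-MB-231 control and 2684 TPM after CPYPP, and to 4281 and 3656 TPM in MDA-MB-435. The summed level of the 7 melanocyte markers was 159 TPM in the MDA-MB-435 control and 69.2 TPM after CPYPP, and 40.2 and 26.2 TPM in MDA-MB-231. Of the 7, SOX10 was lower past the thresholds given below in MDA-MB-435, and whether this has a part in the DNAJ values was not tested. In RNA of a whole culture, fewer cells of a kind and less RNA per cell cannot be told apart.

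Promoter sequences are shown first for DNAJB1, DNAJB4, DNAJA4, DNAJB6 and DNAJA1, which were picked from the members with a heat shock element match. DNAJB9, DNAJC2, DNAJC3 and DNAJC28, which are also called below, had no such match. DNAJC6, called below and with a match, is not printed. The RefSeq promoter table of GRCh38.p14, which covers 250 bases before and 50 bases after each start site, held 52 promoters of 40 members. The heat shock element is built of GAA and TTC units that alternate with 2 bases between them. The window of DNAJB1 (chr19:14518398-14518507, minus strand), DNAJB4 (chr1:78004829-78004938, plus strand) and DNAJA4 (chr15:78264452-78264561, plus strand) runs from 110 bases before the start site to the last base before it. The window of DNAJB6 (chr7:157336854-157336963, plus strand) lies further upstream and ends 41 bases before the start site, and that of DNAJA1 (chr9:33025243-33025292, plus strand) from 30 bases before to 20 bases after it. Each is written 5′ to 3′ on the strand of the gene, and capitals mark the matches to GAANNTTC, to TTCNNGAA or to the element of 3 units in which both overlap.
DNAJB1: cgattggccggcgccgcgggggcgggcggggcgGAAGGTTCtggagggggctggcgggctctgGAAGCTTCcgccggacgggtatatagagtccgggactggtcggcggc
DNAJB4: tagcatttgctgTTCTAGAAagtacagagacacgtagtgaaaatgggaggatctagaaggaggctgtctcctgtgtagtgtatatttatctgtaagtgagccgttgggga
DNAJA4: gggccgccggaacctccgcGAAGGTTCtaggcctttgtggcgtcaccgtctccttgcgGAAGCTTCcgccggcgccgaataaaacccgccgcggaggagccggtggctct
DNAJB6: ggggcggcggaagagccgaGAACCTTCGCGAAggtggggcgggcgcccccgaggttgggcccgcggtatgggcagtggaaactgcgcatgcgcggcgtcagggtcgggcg
DNAJA1: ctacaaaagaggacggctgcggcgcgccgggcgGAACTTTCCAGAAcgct

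The element of 3 units was found in 2 of the 52 member promoters (3.85%), those of DNAJA1 and DNAJB6, and in 0.490% of all 35116 promoters. The form GAANNTTC was found in 7 of the 52 member promoters (13.5%), of 6 members, and in 6.77% of all promoters. These members were DNAJA1, DNAJA4, DNAJB1, DNAJB6, DNAJB7 and DNAJC6. The form TTCNNGAA was found in 4 of the 52 member promoters (7.69%), those of DNAJA1, DNAJB4, DNAJB6 and DNAJC15, and in 7.74% of all promoters. Both strands were searched, each form is its own reverse complement, and the element of 3 units contains both forms. Either form was present in 9 of the 52 member promoters (17.3%) and in 13.5% of all promoters. The promoters of DNAJA1 and DNAJA4 each held GAANNTTC at 2 places, of which the window printed for DNAJA1 shows 1. DNAJB1 held it at 2 places in the promoter printed here and at 1 place in that of another of its 3 RefSeq start sites. The endoplasmic reticulum stress element, CCAAT and CCACG with 9 bases between them, was in none of the member promoters and in 0.0769% of all. TGACGTGG, the unfolded protein response element, was found in 1 of the 52 member promoters (1.92%), that of DNAJC10, and in 0.729% of all promoters. The CCAAT box was in 42.3% of the member promoters and 34.6% of all. The promoter of DNAJB9 held a CCAAT box and none of the other motifs. A match of letters is not evidence that a factor binds there.

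**Figure D1:**
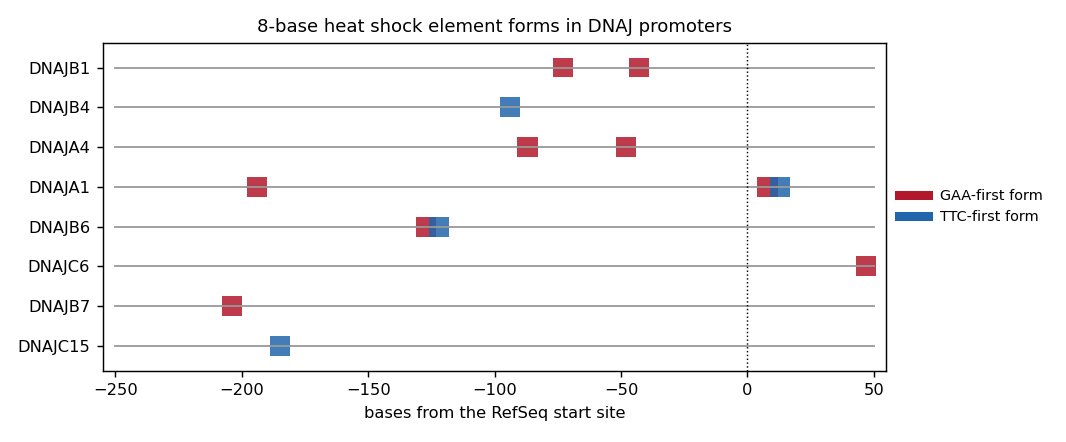
Places of the 8-base heat shock element forms in the promoters of the 8 DNAJ genes that hold 1, against the distance in bases from the RefSeq start site (dotted line). Red boxes are the form that begins with GAA, blue boxes the form that begins with TTC, and overlapping boxes in DNAJA1 and DNAJB6 form the element of 3 units. For DNAJB1 only the promoter printed above is drawn.

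Without CPYPP the family was led by DNAJA1, the main class A co-chaperone of cytosolic HSC70. Levels of different genes were compared as TPM, reads per exon length scaled to the same total in each library. DNAJA1 stood at 706 TPM in the MDA-MB-231 control and 439 TPM in the MDA-MB-435 control, which was 33.2% and 22.4% of the summed TPM of all members. The next members in both controls were DNAJC8, a protein of spliceosomal complexes (180 and 165 TPM), DNAJC5, the cysteine string protein of secretory vesicles (115 and 129 TPM), and DNAJA2, a cytosolic class A protein (106 and 117 TPM). The fifth place was taken by DNAJB6, which suppresses protein aggregation, in MDA-MB-231 (90.6 TPM) and by DNAJB1 in MDA-MB-435 (115 TPM). These places rest on the deposited exon lengths, which for DNAJB1 count 8188 bases against 3672 in GENCODE v29. With the lengths of GENCODE v29, an alternative chosen after seeing the data, DNAJA1 still led both controls and DNAJB1 came second in both. At the other end, DNAJB3 and DNAJB8 had no read in any library. A count of 0 allows up to 3 counts, or between 0.132 and 0.174 CPM, in these libraries. DNAJB7, DNAJB13, DNAJC5B and DNAJC5G had at most 9 counts in any library and were not tested, and DNAJC12, a co-chaperone of aromatic amino acid hydroxylases, passed the minimum of 10 counts only in MDA-MB-435. That left 38 members to test in MDA-MB-231 and 39 for MDA-MB-435.

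The untreated lines differed in few members. Genes were called where the fold was over 2 after TMM scaling and the adjusted p of edgeR's binomial test on the reads was under 0.05, a test that compares 2 libraries and not the lines. By this rule 20.9% of all genes tested were higher in MDA-MB-231 and 22.2% higher in MDA-MB-435. Of the 39 members tested, 2 were higher in MDA-MB-231 and 5 were higher in MDA-MB-435. DNAJC15, a protein of the mitochondrial import machinery, had 862 counts in MDA-MB-231 against 307 in MDA-MB-435, a level 3.01-fold higher (95% counting interval 2.64 to 3.44). DNAJC16, of the endoplasmic reticulum, had 812 and 390 counts and was 2.23-fold (1.98 to 2.52) higher in MDA-MB-231. In the other direction, DNAJC22 showed the widest gap, with 61 counts in MDA-MB-231 against 762 in MDA-MB-435, where it was 11.7-fold higher (8.97 to 15.4). DNAJB2, which is abundant in neurons, was 2.78-fold (2.53 to 3.06) higher in MDA-MB-435 with 566 and 1686 counts. DNAJC13, which acts in endosomal sorting, was 2.74-fold (2.60 to 2.88) higher with 2061 and 6045 counts, and DNAJB5 was 2.49-fold (2.13 to 2.93) higher with 215 and 574. DNAJC12 had 1 count against 13, too few for a fold with a narrow interval. All 11 members of the endoplasmic reticulum were on the MDA-MB-231 side, by a median log2 difference of 0.28, while 49.7% of all genes tested were. This held under TMM, total counts, DESeq2 size factors and upper quartile scaling.

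After CPYPP the share of class B in the family was higher, and those of classes A and C were lower. DNAJB1 was the largest part of class B in both CPYPP libraries. The summed level of the members was 2130 TPM in the MDA-MB-231 control and 4504 TPM after CPYPP, while MDA-MB-435 had 1957 and 5173 TPM. Class B went from 375 to 1856 TPM in MDA-MB-231 and from 429 to 2679 TPM in MDA-MB-435, or from 17.6% to 41.2% and from 21.9% to 51.8% of the sum. DNAJB1 alone had a share of 3.92% before and 25.1% after CPYPP in MDA-MB-231, and 5.89% before and 38.9% after it in MDA-MB-435. Class B without DNAJB1 stood at 292 TPM before and 724 TPM after CPYPP in MDA-MB-231, and at 314 before and 665 TPM after it in MDA-MB-435. As a share of the family this was 13.7% before and 16.1% after for MDA-MB-231, and went down to 12.9% after CPYPP for MDA-MB-435, from 16.05% before it. Class A went from 845 to 1601 TPM in MDA-MB-231 and from 602 to 1407 TPM in MDA-MB-435, most of which was DNAJA1. Class C differed less, with 909 TPM before and 1047 TPM after CPYPP in MDA-MB-231 and 926 before and 1087 TPM after it in MDA-MB-435, so its share of the sum went from 42.7% to 23.2% and from 47.3% to 21.0%. After CPYPP DNAJB1 was the highest member in MDA-MB-435 and the second, behind DNAJA1, in MDA-MB-231. With the exon lengths of GENCODE v29 it was the highest in both CPYPP libraries, and class B went from 21.6% to 54.9% of the sum in MDA-MB-231, and from 27.1% to 67.2% for MDA-MB-435. With 1 library per condition these sums carry no test.

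**Figure D2:**
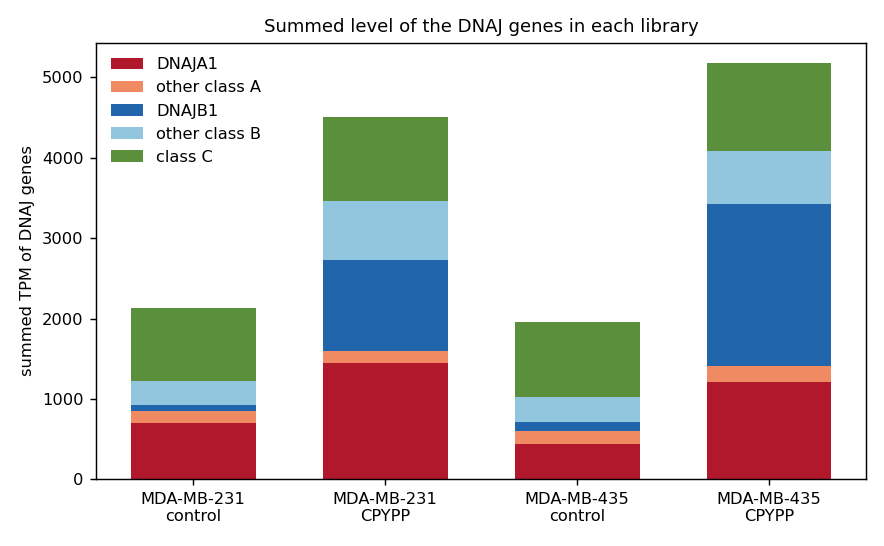
Summed TPM of the DNAJ genes in each of the 4 libraries, stacked as DNAJA1, the other class A genes, DNAJB1, the other class B genes and class C. Bars are single libraries without error, and the DNAJB1 part goes from 83.6 to 1132 TPM in MDA-MB-231 and from 115 to 2014 TPM in MDA-MB-435.

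The single-gene comparison of CPYPP with control asked which members were behind this. In MDA-MB-231, 5 of the 38 members tested rose, where 4.22% of all 16441 genes tested rose, and 1 fell, where 3.09% of all genes fell. In MDA-MB-435, 5 of the 39 members rose, where 3.17% of all 16527 genes rose, and 0 fell, where 6.52% of all genes fell. The genes DNAJA1, DNAJB1, DNAJB4 and DNAJB9 rose in both lines, as did 148 of the 14262 genes tested in both. DNAJA4 rose in MDA-MB-231 only by this rule, DNAJC6 in MDA-MB-435 only, and DNAJC28 fell in MDA-MB-231. If cultures of a condition were assumed to vary by a biological coefficient of 0.4, none of the 6 calls in MDA-MB-231 would pass and DNAJB1 alone would in MDA-MB-435. At a coefficient of 0.2, the calls of DNAJA1 and DNAJC28 in MDA-MB-231 and of DNAJC6 in MDA-MB-435 would be lost. Most of the family moved little. The median log2 fold change of the members was 0.17 for MDA-MB-231 and 0.21 for MDA-MB-435, against -0.01 and -0.02 for all genes tested. Without DNAJB1 and DNAJB4 the median was 0.15 and 0.21. By class, the median was 0.62 and 0.27 for A, 0.36 and 0.61 for B, and 0.05 and 0.07 for C, the first value being that of MDA-MB-231. Under total counts in place of TMM, the medians were 0.55 and 0.12 for A, 0.29 and 0.46 for B, and -0.02 and -0.08 for C. The sign of the class C median thus depends on the scaling.

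**Figure D3:**
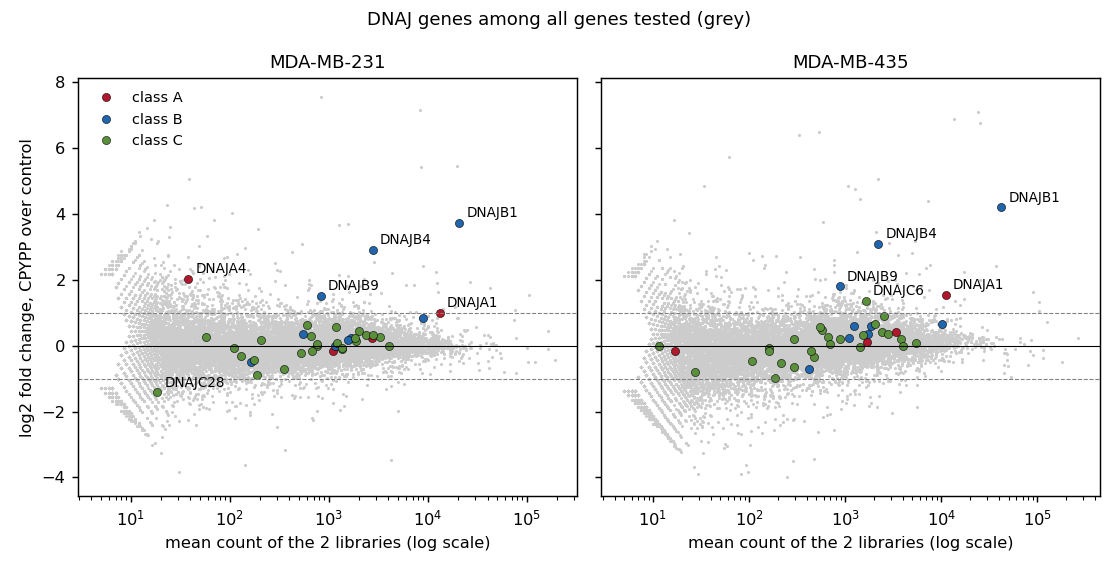
Log2 fold change, CPYPP over control, against the mean count of the 2 libraries (log scale) for the DNAJ genes, coloured by class, over all genes tested (grey), in each line. Dashed lines mark a fold of 2 in either direction and the named members are those past both thresholds, 6 on the left and 5 on the right.

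Between the lines the folds had the same sign in 33 of the 38 members tested in both, 23 above 0 and 10 below, and in 9521 of the 14262 genes tested in both. The lines share no library. As a common effect, fitted to all libraries with cell line as a block and 1 residual degree of freedom, 7 of 39 members were higher by edgeR's quasi-likelihood test at an adjusted p under 0.05, where 4.39% of all 16801 genes were. These were DNAJA1, DNAJB1, DNAJB4, DNAJB6, DNAJB9, DNAJC2 and DNAJC3. No member was lower, 0 of 39 by edgeR's quasi-likelihood test, where 2.85% of all genes were. By the same test 20 members had an unadjusted p under 0.05 in either direction. It has no count over all genes beside it, so it does not set the members apart from other genes. DESeq2's Wald test with the same block called 13 members higher and 2 lower, DNAJB5 and DNAJC30. It called 2131 of all 16801 genes in either direction, against 1215 by edgeR's test. The spread behind both tests is that between the responses of the lines, since no culture was repeated. For each gene it is drawn towards a trend over all genes. An SE or adjusted p of the common effect therefore does not rest on a gene's own spread alone. Without the line as a block, edgeR's quasi-likelihood test called 0 of all 16801 genes, members included. Of the members, 5 had an unadjusted p under 0.05 in that fit, also with no count over all genes beside it.

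**Figure D4:**
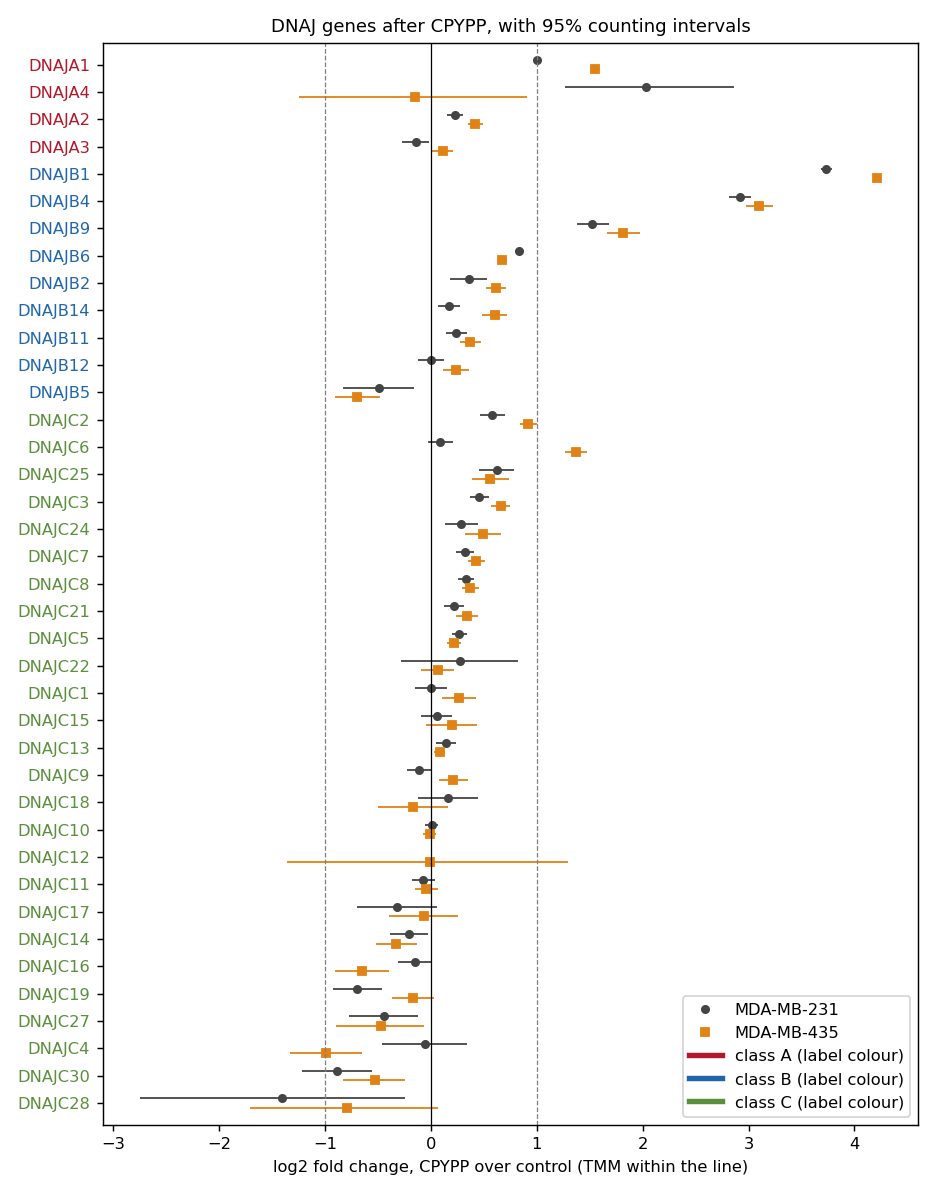
Log2 fold change, CPYPP over control, of every DNAJ gene tested, in MDA-MB-231 (circles) and MDA-MB-435 (squares), grouped by class through the colour of the symbol. Horizontal lines are 95% counting intervals without any spread between cultures and dashed lines mark a fold of 2. DNAJB1, DNAJB4 and DNAJB9 lie beyond the dashed line in both lines, while most class C genes lie near 0.

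Among the cytosolic class A members, DNAJA1 (ENSG00000086061, chromosome 9, 33025273 to 33039907 of GRCh38, plus strand) had 10621 counts in the MDA-MB-231 control and 15625 after CPYPP, and 6745 and 15348 in MDA-MB-435. The fold was 2.01 (1.96 to 2.06) in MDA-MB-231, at the edge of the threshold, and 2.93 (2.85 to 3.02) in MDA-MB-435. In MDA-MB-231 the call was lost under total counts, where the log2 fold change was 0.94, and under upper quartile scaling, where it was 0.96. As a common effect its log2 change was 1.24 (SE 0.134, edgeR quasi-likelihood adjusted p = 6.26e-04). DNAJA2 showed smaller values, with counts of 2945 without and 2531 with CPYPP in MDA-MB-231, and of 3341 without and 3467 with it in MDA-MB-435. Its fold was 1.17 (1.11 to 1.24) and 1.34 (1.28 to 1.40), under the threshold in both lines, and its common effect did not pass edgeR's quasi-likelihood test (adjusted p = 0.162). DNAJA4 (ENSG00000140403, chromosome 15, 78264086 to 78282196) was a low gene, under 3 TPM in every library. Its counts were 19 without and 57 with CPYPP in MDA-MB-231, and 20 without and 14 with it in MDA-MB-435, so that it was at the same level in both controls and above it only in the CPYPP library of MDA-MB-231. The fold was 4.09 (2.40 to 7.29) in MDA-MB-231 and 0.903 (0.422 to 1.88) in MDA-MB-435.

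The cytosolic and nuclear class B members include the most responsive genes of the family. DNAJB1 (ENSG00000132002, on chromosome 19 at 14514769 to 14560391, minus strand), the HSP40 that works with HSP70 in refolding and disaggregation and a classic heat shock gene, had 3858 counts without and 37645 with CPYPP in MDA-MB-231, and 5430 without and 78181 with it in MDA-MB-435. Every CPYPP count was above both controls, with a fold of 13.3 (12.9 to 13.8) for MDA-MB-231 and 18.6 (18.1 to 19.1) for MDA-MB-435. Among all genes tested it ranked 12 from the top by fold for MDA-MB-231 and 13 for MDA-MB-435. Its control level was lower in MDA-MB-231 by a fold of 0.762 (0.731 to 0.794). The rise was larger in MDA-MB-435, with a ratio of the folds of 1.39 (1.33 to 1.46) that allows for counting error only. The common log2 change was 3.93 (SE 0.144, edgeR quasi-likelihood adjusted p = 5.16e-07). Of its exon bases in GENCODE v29, 5.75% overlap TECR on the opposite strand, and the strand setting of the counting is not given in the sources used here.

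DNAJB4 (ENSG00000162616, on chromosome 1 at 77979175 to 78017964, plus strand), a close relative of DNAJB1, had 849 counts without and 4704 with CPYPP in MDA-MB-231, and 577 without and 3833 with it in MDA-MB-435, and ranked 36 and 21 from the top. Both CPYPP libraries lay far above both controls, by a fold of 7.56 (7.03 to 8.15) within MDA-MB-231 and of 8.57 (7.85 to 9.37) within MDA-MB-435. Its common log2 change was 2.96 (SE 0.118, edgeR quasi-likelihood adjusted p = 5.53e-07), and the folds of the lines were close, with a ratio of 1.13 (1.01 to 1.27). DNAJB6 (ENSG00000105993, chromosome 7, 157335381 to 157417439) had 7652 counts without and 10005 with CPYPP in MDA-MB-231, and 9049 without and 11201 with it in MDA-MB-435. Its fold was 1.78 (1.73 to 1.84) and 1.60 (1.55 to 1.64), below the threshold in each line, and its common log2 change of 0.71 passed (SE 0.114, edgeR quasi-likelihood adjusted p = 0.00491). The pseudogene DNAJB6P1, kept out of the family, had 126, 209, 216 and 260 counts in the same order of libraries, and the gene of origin is uncertain for reads that match both. DNAJB2 had counts of 566 without and 531 with CPYPP in MDA-MB-231, and of 1686 without and 1996 with it in MDA-MB-435, a fold of 1.28 (1.14 to 1.44) and 1.53 (1.43 to 1.63). DNAJB5 was the member of this group with folds below 1 in both lines, at 0.711 (0.561 to 0.898) and 0.618 (0.533 to 0.715), and counts of 215, 112, 574 and 275. Neither passed the common test (adjusted p = 0.0685 for DNAJB2 and 0.0711 for DNAJB5, edgeR quasi-likelihood). With DESeq2 size factors, and by DESeq2's Wald test, DNAJB2 was called higher and DNAJB5 lower. DNAJB5 was also called lower by edgeR's test under total counts and with no filter on low counts.

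**Figure D5:**
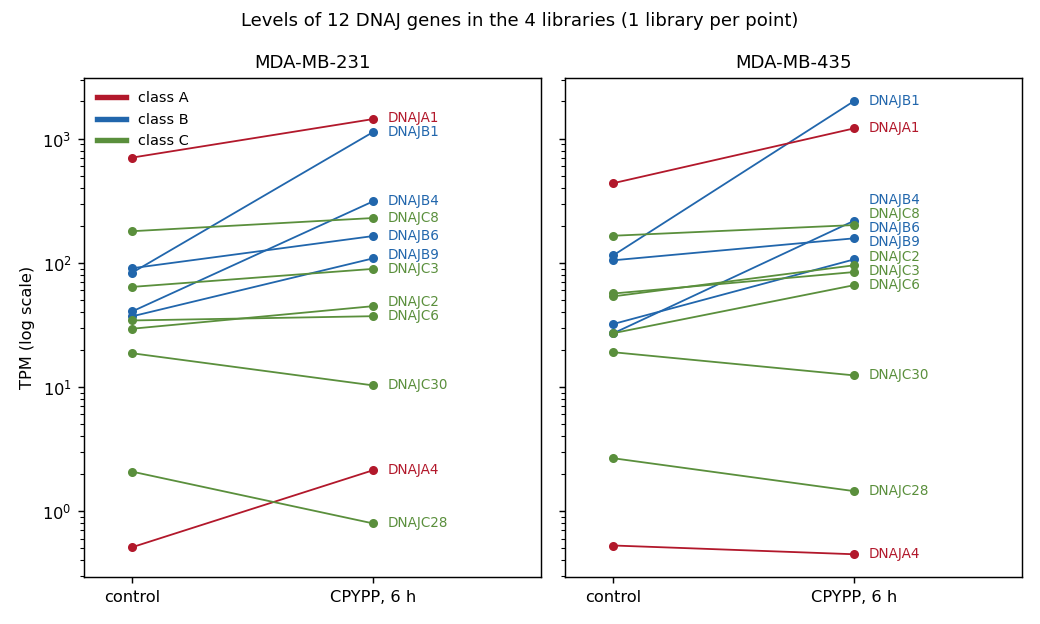
Level in TPM (log scale) of 12 DNAJ genes in the control and CPYPP libraries of each line, coloured by class, 1 library per point. DNAJB1 and DNAJB4 climb most steeply in both panels, DNAJC6 climbs in MDA-MB-435 and is nearly flat in MDA-MB-231, and DNAJA4 climbs in MDA-MB-231 only.

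The endoplasmic reticulum group of 11 genes was split. DNAJB9 (ENSG00000128590, chromosome 7, 108569867 to 108574850), also called ERdj4, a co-chaperone of BiP that restrains the stress sensor IRE1, had 531 counts without and 1120 with CPYPP in MDA-MB-231, and 470 without and 1283 with it in MDA-MB-435. It rose by a fold of 2.88 (2.59 to 3.20) and 3.52 (3.16 to 3.92), with a common log2 change of 1.63 (SE 0.143, edgeR quasi-likelihood adjusted p = 1.43e-04). DNAJC3 (ENSG00000102580, chromosome 13, 95677139 to 95794988), the P58IPK protein that inhibits eIF2α kinases and assists BiP, was next in the common test. Its counts were 2018 without and 2030 with CPYPP in MDA-MB-231, and 1823 without and 2235 with it in MDA-MB-435, a fold of 1.37 (1.29 to 1.46) and 1.58 (1.49 to 1.68). The common log2 change was 0.52 (SE 0.112, edgeR quasi-likelihood adjusted p = 0.0219). DNAJB9 was the only 1 of the 11 past the threshold in a single line, and it was so in both. The group median log2 fold change was 0.16 for MDA-MB-231 and 0.27 for MDA-MB-435.

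The other members of this compartment gave smaller folds than DNAJB9. DNAJB11, or ERdj3, which binds unfolded proteins with BiP, had a fold of 1.18 (1.10 to 1.26) and 1.29 (1.21 to 1.38). DNAJC10, or ERdj5, a disulfide reductase of misfolded proteins, was at 1.00 (0.961 to 1.05) and 0.991 (0.948 to 1.04) with at least 3468 counts in each library. DNAJC25 had folds of 1.54 (1.37 to 1.73) and 1.47 (1.31 to 1.66), and shares 13.8% of its GENCODE v29 exon bases with the readthrough gene DNAJC25-GNG10. Its common log2 change of 0.55 fell just short in edgeR's quasi-likelihood test (adjusted p = 0.0509). By that test with total counts, DESeq2 size factors or no filter on low counts, DNAJC25 was called higher, as it was by DESeq2's Wald test. DNAJC16 had a fold of 0.899 (0.805 to 1.00) and 0.638 (0.534 to 0.760), and DNAJC14 of 0.865 (0.762 to 0.981) and 0.797 (0.697 to 0.911). The direction of members with folds near 1, such as DNAJB12 and DNAJC1 in MDA-MB-231 at 1.00 each, turned with the scaling, so that 9 of the 11 genes were above 0 in MDA-MB-231 under TMM and 6 of 11 under total counts.

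The 7 mitochondrial members mostly had folds below 1. The median log2 fold change was -0.14 in MDA-MB-231, with 6 of 7 below 0, and -0.17 in MDA-MB-435, with 5 of 7 below 0, where 8416 of 16441 and 8488 of 16527 genes tested were below 0. DNAJC28 (ENSG00000177692, chromosome 21, 33485530 to 33491716) fell in MDA-MB-231 from 29 to 8 counts, a fold of 0.377 (0.149 to 0.844), and had 38 and 17 counts in MDA-MB-435, a fold of 0.577 (0.305 to 1.05). With so few reads its interval in MDA-MB-231 spans from slightly to several-fold lower. DNAJC30, which takes part in the assembly of the respiratory chain, had 267 counts without and 106 with CPYPP in MDA-MB-231, and 278 without and 149 with it in MDA-MB-435. Its fold was 0.542 (0.429 to 0.681) and 0.691 (0.563 to 0.846), short of the threshold in both lines, and 14.4% of its GENCODE v29 exon bases overlap BUD23 on the opposite strand. DNAJC4 had 129 counts without and 91 with CPYPP in MDA-MB-231, and 266 without and 104 with it in MDA-MB-435, a fold of 0.963 (0.728 to 1.27) and 0.504 (0.398 to 0.635), just short of the threshold in MDA-MB-435. Under total counts and upper quartile scaling DNAJC4 was called lower there.

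DNAJC19, a subunit of the mitochondrial import motor, gave 0.618 (0.525 to 0.726) in MDA-MB-231 and 0.891 (0.777 to 1.02) in MDA-MB-435. DNAJC15, its paralogue, gave 1.04 (0.935 to 1.15) and 1.15 (0.971 to 1.35), with intervals that include 1 in both lines. DNAJC11, of the cristae-organising complex, gave 0.952 (0.881 to 1.03) and 0.969 (0.899 to 1.04), and 27.9% of its 5083 exon bases in GENCODE v29 overlap THAP3 on the opposite strand, where the deposited exon length is 12182 bases. DNAJA3, or TID1, the class A co-chaperone of mitochondrial HSP70, was 0.905 (0.830 to 0.986) in MDA-MB-231 and 1.08 (1.01 to 1.16) in MDA-MB-435. No mitochondrial member passed the common test of edgeR's quasi-likelihood fit, with DNAJC30 nearest (log2 change -0.75, SE 0.220, adjusted p = 0.0705).

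Among the nuclear and ribosomal members, DNAJC2 (ENSG00000105821, chromosome 7, 103312289 to 103344830), the ribosome-associated zuotin homologue MPP11, gave the highest values. It had 1114 counts without and 1219 with CPYPP in MDA-MB-231, and 2074 without and 3039 with it in MDA-MB-435, a fold of 1.49 (1.38 to 1.62) and 1.89 (1.79 to 1.999). The common log2 change was 0.71 (SE 0.120, edgeR quasi-likelihood adjusted p = 0.00661), though neither line alone passed the threshold. DNAJC8 had smaller folds than DNAJC2, with 2935, 2699, 2755 and 2766 counts and folds of 1.26 (1.19 to 1.32) and 1.29 (1.23 to 1.37). DNAJC9, a histone chaperone, gave 0.925 (0.856 to 1.00) in MDA-MB-231 and 1.16 (1.05 to 1.27) in MDA-MB-435, and 24.0% of its GENCODE v29 exon bases overlap FAM149B1 on the opposite strand. DNAJC21, a ribosome biogenesis factor, gave 1.17 (1.09 to 1.25) and 1.26 (1.18 to 1.36), and DNAJC17, a splicing-related protein, 0.802 (0.618 to 1.04) and 0.955 (0.760 to 1.20).

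Of the members that act on vesicles, DNAJC6 (ENSG00000116675, chromosome 1, 65248219 to 65415871) stood out between the lines. It encodes auxilin, which recruits HSC70 to strip clathrin from coated vesicles. Its counts were 1347 and 1050 in MDA-MB-231, a fold of 1.06 (0.981 to 1.15), and 1087 and 2180 in MDA-MB-435, a fold of 2.59 (2.40 to 2.78). The ratio of the folds was 2.43 (2.18 to 2.71), with counting error only, and the common effect did not pass edgeR's quasi-likelihood test (log2 change 0.69, SE 0.228, adjusted p = 0.103). By the same edgeR test with total counts, with DESeq2 size factors or with no filter on low counts, DNAJC6 was called higher. With an assumed biological coefficient of 0.2 its call in MDA-MB-435 would be lost. DNAJC5 had 3452 counts without and 3041 with CPYPP in MDA-MB-231, and 3971 without and 3572 with it in MDA-MB-435, folds of 1.20 (1.14 to 1.26) and 1.16 (1.11 to 1.21). DNAJC13 gave 1.10 (1.03 to 1.18) and 1.06 (1.02 to 1.10). GAK, the auxilin homologue found in most tissues, had folds of 1.06 (0.949 to 1.18) and 1.07 (0.999 to 1.15).

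The remaining class C members, which fit none of these groups, ranged in MDA-MB-231 from 0.736 (0.586 to 0.921) for DNAJC27 to 1.25 (1.18 to 1.33) for DNAJC7, an adaptor of HSP70 and HSP90. In MDA-MB-435 they ranged from 0.719 (0.537 to 0.958) for DNAJC27, a small GTPase with a J domain, to 1.41 (1.25 to 1.58) for DNAJC24, which acts in diphthamide synthesis. DNAJC22, the member with the widest gap between the controls, gave 1.21 (0.822 to 1.77) and 1.04 (0.937 to 1.16). The gap between the lines in DNAJC22 therefore stayed after CPYPP, at 54 against 617 counts.

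The sizes of the folds were compared between the lines as a ratio. The interval of the ratio of folds, MDA-MB-435 over MDA-MB-231, left out 1 in 19 of 38 members (50%) and in 5827 of the 13969 genes for which it was computed (41.7%). The total count over the 4 libraries, which sets the width of the interval, had a median of 4622 over the members and 2146 over these genes. The ratio was above 1 for DNAJA1, at 1.46 (1.41 to 1.52), DNAJB9, at 1.22 (1.05 to 1.42), and DNAJC2, at 1.27 (1.14 to 1.40). It was below 1 for DNAJB6, at 0.894 (0.859 to 0.932), DNAJC4, at 0.524 (0.363 to 0.756), and DNAJA4, at 0.220 (0.0855 to 0.566). These intervals hold no spread between cultures, and a difference between the lines' responses was not tested.

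DNAJ proteins act on HSP70, and the partner genes were read beside them. Of 10 HSP70 genes, HSPA1A, HSPA1B, HSPA6 and HSPA8 rose in both lines, the other 6 passed the threshold in neither, and 0 fell, where 4.22% and 3.17% of all genes rose. HSPA6 had 12 counts without and 1639 with CPYPP in MDA-MB-231, and 1 without and 67 with it in MDA-MB-435. Its fold in MDA-MB-435 therefore rests on the floor of 3 counts. HSPA8, the constitutive HSC70, had 59764 counts without and 92138 with CPYPP in MDA-MB-231, and 71001 without and 138526 with it in MDA-MB-435, a fold of 2.10 (2.08 to 2.13) and 2.52 (2.49 to 2.54). HSPA5, the BiP of the endoplasmic reticulum, had a fold of 1.29 (1.26 to 1.31) and 1.52 (1.48 to 1.55), and HSPA9 of mitochondria 1.19 (1.16 to 1.22) and 1.57 (1.53 to 1.61). Of 13 nucleotide exchange factors, which release ADP from HSP70, 3 rose in MDA-MB-231 (HSPH1, HSPA4L and BAG3) and 5 in MDA-MB-435 (also GRPEL2 and BAG2). BAG3 gave 4.59 (4.37 to 4.83) and 5.51 (5.29 to 5.74), and HSPH1 3.74 (3.64 to 3.85) and 3.997 (3.92 to 4.08). None of the 3 linkers STIP1, ST13 and STUB1 passed the threshold in a line. In the common effect, 6 of the 10 HSP70 genes, 7 of the 13 exchange factors and 2 of the 3 linkers (STIP1 and ST13) were higher by edgeR's quasi-likelihood test, where 4.39% of all genes were, and 0 were lower by it.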

How the data were processed

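The members and gene lists were chosen with earlier results of these data known. Per the labels, the study's notes name cutadapt 1.9.1, HISAT2 2.2.1, HTSeq 0.6.1 and DESeq2, and the deposited table holds the authors' unnormalized counts of reads for each gene beside positions, exon lengths and symbols; 20417 genes have no symbol. The notes name GRCh37.p13, but 58241 of the 58254 genes found in GENCODE v29 (GRCh38), and all 45 members, lie at its GRCh38 positions, so positions are given as GRCh38. The growth and treatment text names MDA-MB-435 for every sample; lines were taken from each sample's own cell line label. Whether reads were counted by strand is not given in the sources used here, and 24 members share exon bases with another gene, 19 of them on the opposite strand.

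The statistics were computed with edgeR 4.0.16 and DESeq2 1.42.0 in R 4.3.3, and figures drawn in Python 3.11.15 with matplotlib 3.10.9. Within a line, genes with at least 10 counts in 1 of the 2 libraries were compared with edgeR's binomTest, with Benjamini-Hochberg adjustment over all genes tested, and called at a fold over 2 and an adjusted p under 0.05. The p of this test compares libraries and is not printed for a gene. For MDA-MB-231 the TMM factors of control and CPYPP were 1.02 and 0.976, and for MDA-MB-435 1.05 and 0.950. Counts under 3 were set to 3 in folds. Intervals are 95% Clopper-Pearson, and those of a ratio of folds are conditional exact. The common effect was fitted with glmQLFit and glmQLFTest after filterByExpr, with the line as a block and TMM factors computed over all 4 libraries. Its spread for each gene was moderated towards a trend over all genes. The SE printed with a common log2 change is its absolute value divided by the square root of the F statistic of the quasi-likelihood test. TPM used the deposited exon lengths, which for 18 of the 45 members are longer than the merged exons of GENCODE v29, by up to 2.40 times. Overlaps with other genes are shares of the GENCODE v29 exon bases. Scripts were tested on simulated data. Every member may be named, with full values for those called in a line or by the common effect and for the 5 highest by TPM in each control. Depths of 17196385 to 22663954 counts give narrow intervals at high counts and intervals of several-fold near 10. Alternatives were other scalings, filters, call rules, assumed biological coefficients of variation of 0.2 and 0.4, another tool and no block. Features of the protein sequences were not analysed here. The counts over a further list of genes, to which GAK belongs, are not reported here.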

Additional observations from a re-analysis of the deposited data

Results flagged for a closer look

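2 J-domain genes had folds on opposite sides of 1 in the lines, each beyond its counting interval. DNAJA3, of mitochondria, was at 0.905 in MDA-MB-231 (1314 and 871 counts) and 1.08 in MDA-MB-435 (1827 and 1531 counts). DNAJC9, a histone chaperone, was at 0.925 in MDA-MB-231 (1604 and 1087 counts) and 1.16 in MDA-MB-435 (933 and 838 counts). Of the exon bases of DNAJC9 in GENCODE v29, 24.0% overlap FAM149B1 on the opposite strand, and whether reads were counted by strand is not known. The condition of opposite folds beyond counting error held for both genes under TMM only. Under total counts and upper quartile scaling neither met the condition, with DNAJA3 in MDA-MB-435 at 0.974 (0.910 to 1.04) and 1.00 (0.934 to 1.07) and DNAJC9 there at 1.04 (0.9503 to 1.15) and 1.07 (0.976 to 1.18). With DESeq2 size factors DNAJA3 alone met it, since the interval of DNAJC9 in MDA-MB-231, 0.862 to 1.01, reached past 1. With TMM over all 4 libraries, chosen after seeing the data, DNAJC9 alone met it. The gaps are small, each line has 1 library per condition, and the difference was not tested against a spread between cultures. Among the 14262 genes tested in both lines, 873 met the same condition under TMM.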

How the results depend on the processing

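Counts of members in a line rest on 1 library per condition, and what spread between cultures would leave is unknown; low members such as DNAJA4 and DNAJC28 are limited by depth. Control and CPYPP were paired by cell line alone, through the block of the common effect. With 1 library per condition there were no repeated pairs within a line, and the labels give no replicate numbers. In MDA-MB-231 the 5 members that rose came to 0 when a biological coefficient of variation of 0.4 was assumed, and the 1 that fell, DNAJC28, to 0 with at least 10 counts in both libraries and with a coefficient of 0.2 or 0.4, and to 3 at a fold over 1.5. In MDA-MB-435 the 5 that rose came to 10 at a fold over 1.5 and to 1, DNAJB1, with a coefficient of 0.4. The 0 that fell came to 1, DNAJC4, under total counts, upper quartile and TMM over all 4 libraries, and to 3 at a fold over 1.5. The median log2 fold change in MDA-MB-435, 0.21, was 0.065 under total counts, a scaling that moved the median of all genes by -0.15 there, as upper quartile did by -0.11. For MDA-MB-231, TMM called 694 genes higher and 508 lower and total counts 598 and 597. For MDA-MB-435, TMM called 524 and 1078, total counts 370 and 1487, and upper quartile 403 and 1365. Between the controls, the 2 members higher in MDA-MB-231 came to 7 at a fold over 1.5 and to 0 with a coefficient of 0.4, and the 5 higher in MDA-MB-435 to 1, DNAJC22, with 0.4. For the common effect, the 7 higher came to 0 with no line block, where 0 of all 16801 genes were called. The 7 came to 9 under total counts, to 10 with DESeq2 size factors, to 9 with no filter and to 13 with DESeq2's Wald test. The 0 lower, by edgeR's quasi-likelihood test with 20 members at an unadjusted p under 0.05, came to 2, DNAJB5 and DNAJC30. This was so under total counts, DESeq2 size factors, no filter and the Wald test, with 1930, 1773, 1896 and 2131 of all genes called. Member counts at a fold over 1.5, at an assumed coefficient or at an unadjusted p have no count over all genes beside them. Such counts therefore do not show whether the members differ from other genes. For comparisons of 2 libraries, TMM over all 4 libraries was chosen after seeing the data, while the common effect used such factors from the start. DNAJA1 in MDA-MB-231 was under the threshold with TMM over all 4 libraries, at a log2 fold change of 1.00. The cause of these changes was not tested. With exon lengths of GENCODE v29, also chosen afterwards, the share of DNAJB1 in the summed TPM was 8.15% before and 42.6% after CPYPP in MDA-MB-231, and 11.9% and 58.4% for MDA-MB-435.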
